A study of Mus musculus with 6 samples.

Results

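The glypicans and syndecans considered here were 9 genes, the glypican genes Gpc1, Gpc2, Gpc3, Gpc4 and Gpc6 and the syndecan genes Sdc1, Sdc2, Sdc3 and Sdc4. They are part of 19047 genes that had a probe on the array after probes traced to another gene were left out. These 9 were taken by symbol from the array's probe-to-gene table, which gave 15 probes. RNA was profiled on 6 arrays, from embryonic day 9.5 mouse heads of a mixed strain background of C57Bl/6, 129 and ARC/s. The 3 cranial neural crest samples were GFP-positive cells of Wnt1-Cre x Z/EG embryos, and the 3 cranial mesoderm samples were GFP-positive cells of Mesp1-Cre x Z/EG embryos. Z/EG is a reporter allele that makes GFP once Cre recombinase has acted, and both groups carry it together with a Cre. GFP therefore marks a lineage and not a state: Wnt1-Cre also labels the dorsal neural tube and midbrain, and Mesp1-Cre also labels vessels, blood and heart. How many embryos went into a sample is not given in the sources used here.

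Heparan sulfate is a long sulfated sugar chain that binds FGF, WNT, BMP and hedgehog ligands and holds them near their receptors. Glypicans are anchored in the outer membrane leaflet by a lipid tail, whereas syndecans span the membrane, carry short cytoplasmic tails that bind scaffold proteins, and are shed by proteases. In the head, both families are known as modulators of the signals that crest, mesoderm and neural tube exchange, and human mutations of GPC3, GPC4 and GPC6 cause overgrowth, craniofacial and skeletal syndromes.

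Sdc2 was the member that was higher in cranial mesoderm, by 2.46-fold, and Gpc1 and Sdc1 were higher in cranial neural crest, by 2.10-fold and 2.25-fold. Gpc2, Gpc6 and Sdc3 had lower means in mesoderm and Gpc3 nearly equal ones, and none of these 4 passed the test. Gpc4 and Sdc4 were detected on 0 of the 6 arrays. Levels are given in the order of replicates 1, 2 and 3 and are log2 values of background-corrected, quantile-normalized intensity, differences are mesoderm minus crest on that log2 scale with the standard error (SE) of limma's model (3 arrays per group), and a gene was called at a Benjamini-Hochberg adjusted p under 0.05 over the 9214 genes tested. Of the 7 members tested, 1 was called higher in mesoderm, where 10.1% of all tested genes were, and 2 in crest, where 8.31% were. In either direction 3 of 7 were called against a background of 18.5%, and in the same 3 members no crest array overlapped the mesoderm arrays, as in 37.2% of all tested genes. At the level of probes 8 of the 15 were tested, and 1 was higher in mesoderm, where 8.74% of all tested probes were, and 2 in crest, where 7.51% were (16.2% in either direction). The median log2 difference was -0.86 over the 7 members and -0.071 over all tested genes. Under median scaling in place of quantile normalization the latter became -0.303, and the share of calls that were higher in mesoderm went from 55.0% to 44.9%.

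**Figure D1:**
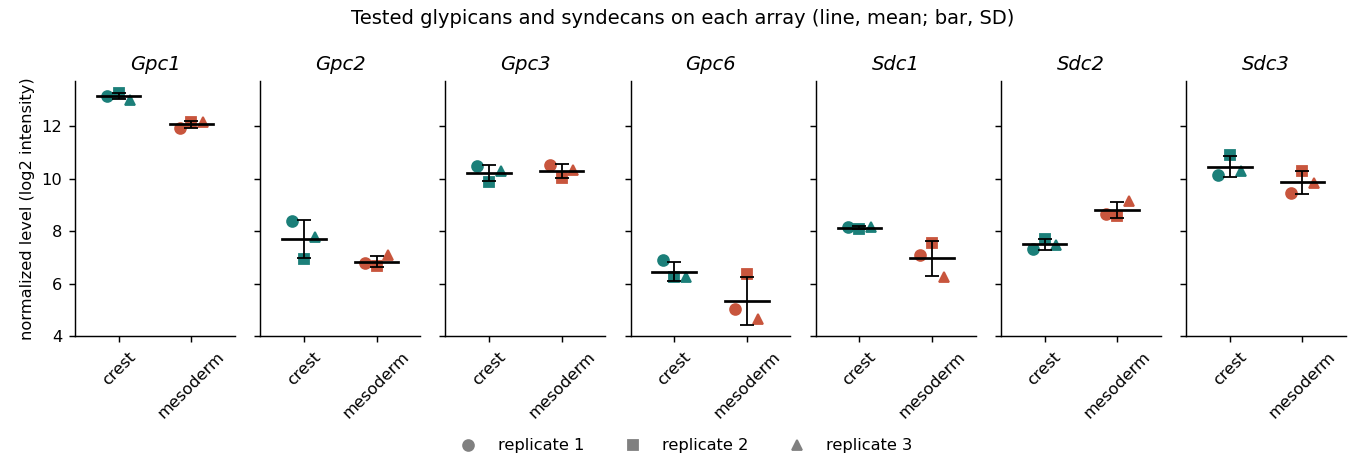
Normalized log2 intensity (vertical axis) of the 7 tested members on each of the 3 crest and 3 mesoderm arrays, with the group mean (line) and SD (bar). The groups are apart for Gpc1, Sdc1 and Sdc2 and overlap for Gpc2, Gpc3, Gpc6 and Sdc3.

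Between 30.8% and 34.1% of 45281 probes were detected on each, detection meaning a signal above all but 5% of the array's negative controls (detection p under 0.05), and Pearson's r across the 13057 probes tested was 0.943 to 0.984 within groups and 0.836 to 0.914 between them. The weights that limma estimated from how far each array lay from its group ran from 0.419 for mesoderm replicate 3 and 0.484 for crest replicate 2 to 6.88 for crest replicate 3, so the arrays were not equally close to their groups. By their labels they shared 1 chip, crest at some positions and mesoderm at others, so chip position and cell type cannot be told apart. Markers went with the labels. In crest 7 of 8 tested neural tube and midbrain markers and 4 of 7 migratory crest markers were higher and 0 lower, although Sox3, Pax3, Pax7 and Pax6 of the first list and Foxd3 and Erbb3 of the second were detected on 0 arrays. In mesoderm 6 of 6 tested markers of cranial mesoderm, 11 of 12 of endothelium, 9 of 9 of white cells and platelets and 7 of 8 of red cells were higher, with Myf5, Lhx2, Ecscr and Ptprc detected on 0 arrays. Many of these markers passed the detection filter through the arrays of 1 group, which partly fixed these counts in advance. With detection asked for on all 6 arrays, 2 of 2 neural tube and 2 of 5 migratory crest markers were higher in crest. Higher in mesoderm were then 3 of 3 of cranial mesoderm, 3 of 3 of endothelium and 1 of 3 of red cells, and 0 of white cells and platelets were tested. The summed level of 14 endothelial markers was 1174 to 1820 normalized units in crest and 35500 to 43320 in mesoderm, and that of 12 neural tube markers 6354 to 11300 in crest and 246.6 to 645.8 in mesoderm. In such bulk samples more cells of a type and more RNA per cell cannot be told apart, and the part of these markers in the differences below was not tested.

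Positions and sequences come from RefSeq on GRCm38.p6, not from the deposited files. Of the 9 members 6 had a promoter in that table, and 3 are shown as the 250 bases before the start of the gene: Sdc1, as the called member with an entry, and Gpc3 and Gpc4, which are neighbouring protein-coding genes on chromosome X of which the first gave a bright signal and the second none above background. Capitals mark the E-box CANNTG, the site class of bHLH factors such as TWIST1, after which the series is titled, and the GC box GGGCGG on either strand. The windows are chr12:8771146-8771395, plus strand, chrX:52613975-52614224, minus strand, and chrX:52164924-52165173, minus strand, each written 5′ to 3′ along the gene.
Sdc1: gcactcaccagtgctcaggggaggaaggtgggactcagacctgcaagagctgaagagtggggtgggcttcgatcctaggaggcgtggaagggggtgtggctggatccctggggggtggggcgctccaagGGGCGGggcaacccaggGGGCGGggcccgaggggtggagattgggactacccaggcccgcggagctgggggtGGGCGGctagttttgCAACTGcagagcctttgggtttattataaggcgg
Gpc3: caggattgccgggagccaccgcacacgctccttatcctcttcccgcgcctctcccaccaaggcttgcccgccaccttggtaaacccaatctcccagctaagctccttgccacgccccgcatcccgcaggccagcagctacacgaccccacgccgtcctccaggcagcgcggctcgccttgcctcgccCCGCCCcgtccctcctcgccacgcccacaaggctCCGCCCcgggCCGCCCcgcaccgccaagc
Gpc4: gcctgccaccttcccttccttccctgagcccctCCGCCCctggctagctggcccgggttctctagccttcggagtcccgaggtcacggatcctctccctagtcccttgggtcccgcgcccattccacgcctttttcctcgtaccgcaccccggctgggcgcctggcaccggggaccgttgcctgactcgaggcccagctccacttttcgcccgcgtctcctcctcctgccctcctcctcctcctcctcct
The Sdc1 window held 1 E-box, which began 34 bases before the start, and 3 GC boxes. The Gpc3 window held 0 E-boxes and 3 GC boxes, and the Gpc4 window 0 E-boxes and 1 GC box. No motifs overlapped in these windows. Over all 6 members with an entry (Gpc2, Gpc3, Gpc4, Sdc1, Sdc3 and Sdc4) 2 windows held an E-box and 6 a GC box, where 66.2% and 32.7% of 32851 promoter windows of the same length did. The GC content was 66.0% in the Sdc1 window, 71.6% in that of Gpc3 and 68.4% in that of Gpc4, with a median of 52.4% over all windows.

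Among the glypicans, Gpc1, a glypican of the nervous system and of skeletal tissue, was detected on every array. Its 1 probe gave deposited signals of 11028, 10526 and 7971 intensity units in crest and of 2453, 6091 and 4289 in mesoderm. The normalized log2 levels were 13.15, 13.28 and 13.02 in crest and 11.92, 12.15 and 12.16 in mesoderm. Every crest array was thus above every mesoderm array, before and after normalization. The log2 difference was -1.07 ± 0.21 (SE, limma adjusted p = 0.00817), a 2.10-fold excess in crest with a 95% interval of 1.51 to 2.92. The call was lost without mesoderm replicate 1 (-0.93, adjusted p = 0.0551) and kept without any other array.

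Gpc3, a glypican that binds hedgehog and restrains growth, was well detected in both groups at nearly equal levels. Its brightest probe stood at log2 levels of 10.49, 9.88 and 10.28 in crest and of 10.53, 10.01 and 10.35 in mesoderm. The groups overlapped, and replicate 2 was the lowest in each. Mesoderm minus crest was 0.08 ± 0.25 (SE, limma adjusted p = 0.876), with a 95% interval of -0.50 to 0.65, so that changes of up to 1.57-fold toward mesoderm and 1.41-fold toward crest lay inside it. Its sign turned under median scaling (-0.22) and without crest replicate 2 (-0.09) or mesoderm replicate 1 (-0.04). A second bright probe gave 0.06 ± 0.25 (adjusted p = 0.909 over the 13057 probes tested). The third probe was not detected on any array.

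Gpc6, a glypican of growing bone, was seen in crest and less evenly in mesoderm. Its 1 probe stood at log2 levels of 6.89, 6.24 and 6.27 in crest and at 5.03, 6.39 and 4.65 in mesoderm. It was detected on 3 crest arrays but on 1 mesoderm array, replicate 2, which lay among the crest arrays. It passed the detection filter through the crest arrays, and its mesoderm values rest partly on background. The log2 difference was -1.11 ± 0.43 (SE, limma adjusted p = 0.115), and it fell to -0.45 with the authors' values, which have no background correction. Without mesoderm replicate 2 it was past the threshold (-1.59, adjusted p = 0.0118), but the other mesoderm arrays were then both not above background, so that this value sets crest against background and is not a measured size. Among the mesoderm arrays replicate 2 had the highest summed level of neural tube (645.8 units), cranial mesoderm (3628), migratory crest (4687) and neuron markers (573.9), and the lowest of endothelial (35500), white cell and platelet (7838), red cell (16390) and epithelial markers (381.3). The brightest crest marker in mesoderm was Sox9 (11.122, 11.239 and 10.862), which was not called between the groups. Of the called crest markers, Sox10 (7.118, 6.152 and 6.894) and Tfap2b (5.342, 5.146 and 6.72) were lowest on replicate 2. Ednrb was lowest on replicate 1, and Tfap2a was detected on 0 mesoderm arrays. Ngfr and Ets1, also not called, were highest on replicate 2 (9.388, 10.098 and 8.872) and on replicate 1. Of the tested neural tube markers Sox21, Otx2, En1, En2 and Wnt3a were highest on replicate 2 in mesoderm, and Sox2, Wnt1 and Lmx1b on replicate 3. The brightest tested neuron marker in mesoderm was Isl1. Whether cell content had a part in the Gpc6 level of mesoderm replicate 2 was not tested. Among the crest arrays replicate 2 had the highest neural tube sum (11300). Its Gpc6 level of 6.24 was nearly that of replicate 3 (6.27), where the deposited signal was lowest (156.1 units against 214.9 on replicate 2).

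Gpc2, known as cerebroglycan for its place in young neurons, varied within crest. Its log2 levels were 8.40, 6.96 and 7.78 in crest and 6.79, 6.67 and 7.10 in mesoderm. Crest replicate 2 fell among the mesoderm arrays after normalization, although the deposited signals of 281.3 to 504.4 units in crest and 150.5 to 247.1 units in mesoderm did not overlap. The estimate was -0.86 ± 0.36 (SE, limma adjusted p = 0.131), and it passed without crest replicate 2 (-1.23, adjusted p = 0.0316) and was -0.56 with the authors' values. The summed level of 9 young neuron markers was also lowest in crest on replicate 2, at 554.1 units against 1323 and 1422 on replicates 1 and 3, and so was that of 9 red cell markers, at 178.8 against 4162 and 2367. In mesoderm the order was the opposite: the neuron sum was highest on replicate 2, at 573.9 units against 323.0 and 322.6, where Gpc2 was lowest. The brightest tested marker of that list in mesoderm was Isl1, at 7.549, 8.765 and 8.053, with a mean above that in crest (8.122 against 7.085). Stmn2 stood at 6.548, 6.424 and 4.668 there. Dcx and Elavl3 were highest on replicate 2 but were detected on 0 and 1 mesoderm arrays. Whether neuron content had a part in the Gpc2 levels of either group was not tested.

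Gpc4, a glypican of neural progenitors and astrocytes, gave no usable level. Its brighter probe had signals of at most 138.3 intensity units and a detection p no lower than 0.0983, and the other probe 90.5 to 106.8 units. Gpc5, the sixth mammalian glypican and not among the members, was likewise detected on 0 arrays by any of its probes. A signal within the range of negative controls does not show that a transcript was absent.

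**Figure D2:**
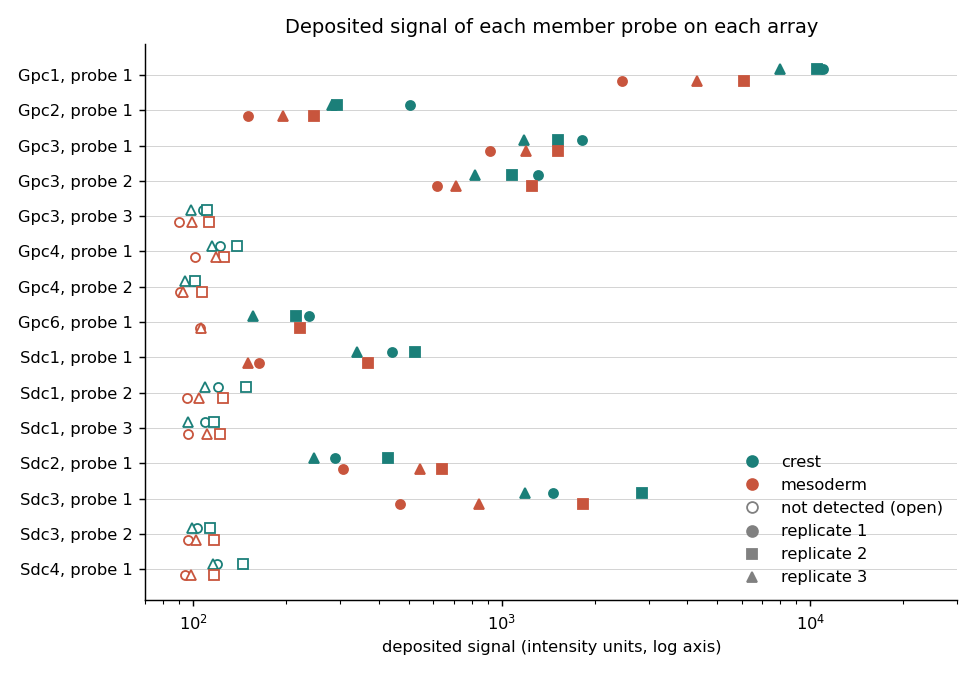
Deposited signal (horizontal axis, intensity units on a log scale) of each of the 15 member probes on each array, by cell type (colour) and replicate (shape), with open symbols where the probe was not detected. Gpc4, Sdc4 and the weaker probes of Gpc3, Sdc1 and Sdc3 sit near the background on all arrays.

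Among the syndecans, Sdc2 was the member that rose toward mesoderm. Syndecan-2 is the syndecan of mesenchyme and also acts in vessels. Its 1 probe stood at log2 levels of 7.31, 7.72 and 7.47 in crest and at 8.65, 8.60 and 9.15 in mesoderm. Every mesoderm array was above every crest array. This gave a log2 difference of 1.30 ± 0.24 (SE, limma adjusted p = 0.00662), a 2.46-fold excess with a 95% interval of 1.68 to 3.6, and the call was kept on leaving out any of the 6 arrays. The groups parted only after scaling between arrays: the deposited signals were 287, 429 and 247 units in crest and 307, 640 and 544 in mesoderm, where mesoderm replicate 1 fell below crest replicate 2. Under median scaling the difference was 0.96 (adjusted p = 0.0981), beside the median shift of -0.303 over all tested genes in that setting.

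Sdc1, the syndecan typical of epithelia and also found in early mesenchyme, went the other way. The probe that stands for it had log2 levels of 8.16, 8.09 and 8.17 in crest and of 7.09, 7.56 and 6.26 in mesoderm. The crest arrays were close together, while the mesoderm arrays were all lower and spread wide. In the deposited signals the groups overlapped, at 440.3, 524.1 and 340.5 units in crest and 163.9, 369.3 and 150.2 in mesoderm. The log2 difference was -1.17 ± 0.33 (SE, limma adjusted p = 0.0376), a 2.25-fold excess in crest with a 95% interval of 1.35 to 3.76, and it was -0.75 with the authors' values (adjusted p = 0.0384). The call was kept without mesoderm replicate 2 (adjusted p = 0.0166) and lost without any other array (adjusted p = 0.0701 to 0.127). Of 5 tested epithelial markers 0 were called by limma (2 had an unadjusted p under 0.05, and Krt8 was nearest, at adjusted p = 0.0725), the epithelial genes Epcam, Krt19, Cldn4, Grhl2 and Grhl3 were detected on 0 arrays, and the summed level of 11 such markers was 524.5 to 578.2 units in crest and 381.3 to 433.0 in mesoderm.

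The deposited detection p of Sdc1 did not go with its signal. The bright probe carried the p-values that the signals of a dim Sdc1 probe give on each array, to within 0.00107, and that dim probe carried p-values of 0. Signals or p-values of these probes had thus changed places within the gene, so the value is that of Sdc1 and not of a particular probe. Taking the deposited p at face value puts the dim probe in place of the bright one, with a log2 difference of -0.27 (adjusted p = 0.337). The same exchange was found between a bright and a dim probe of Gpc3 and between the probes of Gpc4, and Gpc1, Gpc2, Gpc6, Sdc2, Sdc3 and Sdc4 were free of it.

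Sdc3, the syndecan of neural tissue, was bright in both groups. Its brighter probe stood at log2 levels of 10.16, 10.91 and 10.29 in crest and of 9.45, 10.31 and 9.82 in mesoderm. The groups overlapped, with mesoderm replicate 2 above 2 of the 3 crest arrays. Mesoderm minus crest came to -0.59 ± 0.30 (SE, limma adjusted p = 0.221, 95% interval -1.28 to 0.10), and adjusted p stayed at or above 0.0997 in the 16 alternatives tried. The other probe was not detected on any array.

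Sdc4, the syndecan of focal adhesions, whose part in crest migration is known from frog and fish, was not detected on any array. Its signals were 119.3, 145.3 and 115.5 units in crest and 94.1, 116.5 and 98.7 in mesoderm, with a lowest detection p of 0.078 on crest replicate 2. It was therefore not tested.

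**Figure D3:**
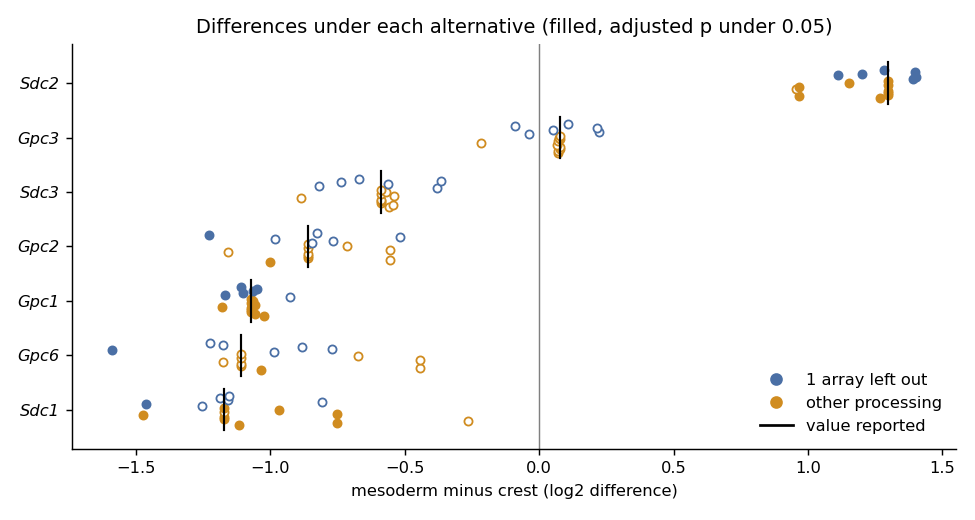
Log2 difference, mesoderm minus crest (horizontal axis), of the 7 tested members as reported (line) and under each alternative, with 1 array left out (blue) or other processing (orange). Filled points have an adjusted p under 0.05. Over filled and open points together, Sdc2 stays between 0.96 and 1.40, Sdc1 reaches from -1.48 to -0.27, and Gpc3 lies on both sides of 0.

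**Figure D4:**
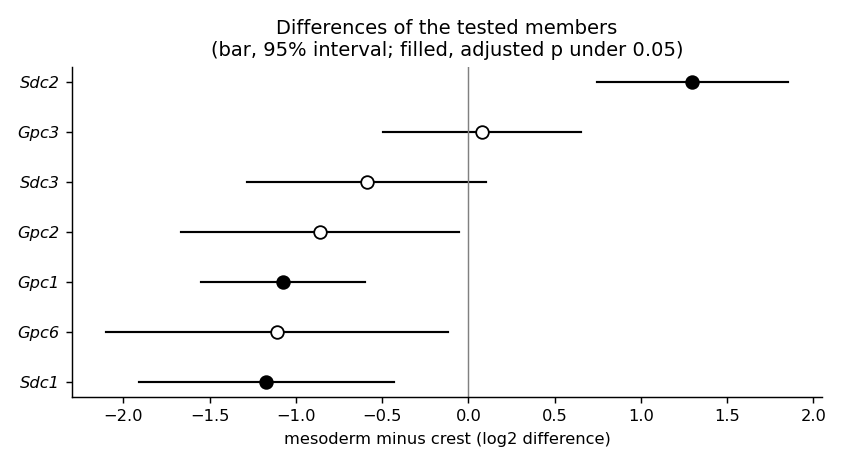
Log2 difference, mesoderm minus crest (horizontal axis), of the 7 tested members with its 95% interval (bar). Filled points are calls at an adjusted p under 0.05: Sdc1 at -1.17, Gpc1 at -1.07 and Sdc2 at 1.30.

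Likeness over the 6 arrays was measured as the root mean square distance of log2 levels, each gene centred on its own mean, among 9207 other tested genes. The genes nearest to Gpc1 were Greb1 at 0.053 log2 units and Cep78 at 0.068. Those nearest to Sdc1 were Psd2 at 0.125 and Mib1 at 0.129, and those nearest to Sdc2 were Zcchc24 at 0.086 and Tmem184b at 0.101.

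Of the other carriers of heparan sulfate, perlecan, collagen XVIII and betaglycan genes were higher in mesoderm and the agrin gene in crest. Of 10 such genes 6 were tested, with 3 calls toward mesoderm and 1 toward crest and a median log2 difference of 1.17. Hspg2, which encodes perlecan of basement membranes, rose by 2.12 ± 0.29 (SE, limma adjusted p = 0.00119), from 9.66, 8.65 and 9.24 on the crest arrays to 11.28, 11.12 and 11.49 on the mesoderm arrays. Col18a1, the basement membrane collagen that carries endostatin, rose by 1.51 ± 0.25 (adjusted p = 0.0036). The probe behind that value carried a detection p out of place, and a second probe, whose p was in place, gave 0.90 (adjusted p = 0.038 over probes). Tgfbr3, the TGF-beta co-receptor betaglycan, rose by 1.39 ± 0.22 (adjusted p = 0.00288). The call of Tgfbr3 was lost under median scaling (adjusted p = 0.0717). Agrn, which encodes agrin, was higher in crest at -0.73 ± 0.22 (adjusted p = 0.0476), a call that none of the 6 fits on 5 arrays kept (adjusted p = 0.0503 to 0.191). Cd44, a hyaluronan receptor with heparan sulfate on some isoforms, differed by 0.96 ± 0.29 (adjusted p = 0.0543) on the probe that stands for it and by 1.38 on a second one (adjusted p = 0.00801 over probes), both with a detection p out of place. Cd44 was past the threshold with the mean of its probes (1.17), with array weights (0.86) and without mesoderm replicate 1 or 2 (1.30 and 1.51), and with the deposited p another probe gave 0.16 (adjusted p = 0.515).

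Among the enzymes that build the chain 1 gene was called. Of 11 genes for the linker and the chain 9 were tested and 1 was called, with a median of 0.08. The chain polymerase genes Ext1 and Ext2 differed by 0.02 ± 0.25 (limma adjusted p = 0.966, and of the opposite sign in 4 alternatives, median scaling among them) and 0.71 ± 0.28 (adjusted p = 0.114). B3galt6, which adds a linker galactose, was higher in mesoderm by 2.20 ± 0.35 (adjusted p = 0.00294), with crest levels near the background at 5.34, 5.38 and 5.23 and detection on 2 of the 3 crest arrays. Its size was 1.57 with an offset of 50 and 1.08 with the authors' values. Its line also carried a p out of place, and with the deposited p another probe gave -0.11 (adjusted p = 0.663). Of 7 precursor supply genes 4 were tested and 0 called by limma, at adjusted p of 0.114 or above, with 1 at an unadjusted p under 0.05.

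Genes for the sulfation of the chain were called in both directions. Of 16 listed, 9 were tested, with 1 call toward mesoderm and 2 toward crest and a median of -0.34. The 3-O-sulfotransferase genes Hs3st3a1 and Hs3st3b1 went opposite ways. Hs3st3a1 stood at 7.98, 8.76 and 8.37 in crest and at 9.99, 9.65 and 10.26 in mesoderm, a log2 difference of 1.6 ± 0.28 (SE, limma adjusted p = 0.00462). Hs3st3b1 stood at 8.65, 9.87 and 9.41 in crest and at 8.03, 7.53 and 7.80 in mesoderm, a difference of -1.52 ± 0.33 (adjusted p = 0.013), lost without crest replicate 3 (adjusted p = 0.0648). The groups did not overlap for either gene. Hs6st1, a 6-O-sulfotransferase gene, was higher in crest at -0.92 ± 0.26 (adjusted p = 0.0428), kept in the fit without mesoderm replicate 3 and lost in the other 5 such fits (adjusted p = 0.0764 to 0.142) and with the authors' values (-0.48, adjusted p = 0.0596). Hs2st1, of 2-O-sulfation, differed by -0.73 ± 0.30 (adjusted p = 0.132), and Ndst1, of N-sulfation, was not analysed here.

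Editing and breakdown of the chain gave no call. Of 11 genes 7 were tested and 0 called by limma, with 2 at an unadjusted p under 0.05 and the lowest adjusted p, 0.131, for Idua, a lysosomal enzyme gene. The sulfatase genes Sulf1 and Sulf2, which remove 6-O-sulfates outside the cell, differed by -0.60 ± 0.40 (adjusted p = 0.339) and -0.38 ± 0.27 (adjusted p = 0.377), and a second probe of each gave 0.03 and 0.28.

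Among genes listed for the release or cutting of the members, a pair of metalloproteinase genes and a protease inhibitor gene were higher in mesoderm. Of 13 listed, 9 were tested, with 3 calls toward mesoderm and 0 toward crest and a median of 0.53. Mmp14, a membrane protease that sheds syndecan-1, rose by 1.80 ± 0.21 (SE, limma adjusted p = 0.00049), Mmp9, a gelatinase, by 1.64 ± 0.26 (adjusted p = 0.00261), and Timp3, a protease inhibitor, by 1.97 ± 0.34 (adjusted p = 0.00433). With the authors' values Mmp9, whose crest levels of 5.40, 5.43 and 5.79 were near the background, differed by 0.78 (adjusted p = 0.0138). A second probe of Timp3 gave -0.06 (adjusted p = 0.916 over probes). With the mean of its probes Timp3 differed by 0.95 (adjusted p = 0.0452). All 3 calls were kept on leaving out any array. Notum, whose listing does not mean that its enzyme releases glypicans, differed by 0.53 ± 0.25 (adjusted p = 0.181) and was detected on 1 crest and 3 mesoderm arrays. Adam17, a syndecan sheddase gene, differed by -0.31 ± 0.26 (adjusted p = 0.467).

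Of 12 partners of syndecan tails 9 were tested, with 2 calls toward mesoderm and 0 toward crest and a median of 0.29. Prkca, the kinase that binds the syndecan-4 tail, stood at 6.88, 6.81 and 6.77 in crest and at 10.25, 8.70 and 9.88 in mesoderm, a log2 difference of 2.79 ± 0.38 (SE, limma adjusted p = 0.00112). Rhog, a small GTPase gene, rose by 1.11 ± 0.23 (adjusted p = 0.0107), a call lost under median scaling (0.78), without mesoderm replicate 1 and without crest replicate 3. Sdcbp, which encodes the adaptor syntenin, differed by -0.42 ± 0.40 (adjusted p = 0.527), and by 0.08 without crest replicate 2. Over all 7 of these lists 53 genes were tested, of which mesoderm had the higher level in 10 calls and crest in 3, in all 24.5% against the background of 18.5%.

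**Figure D5:**
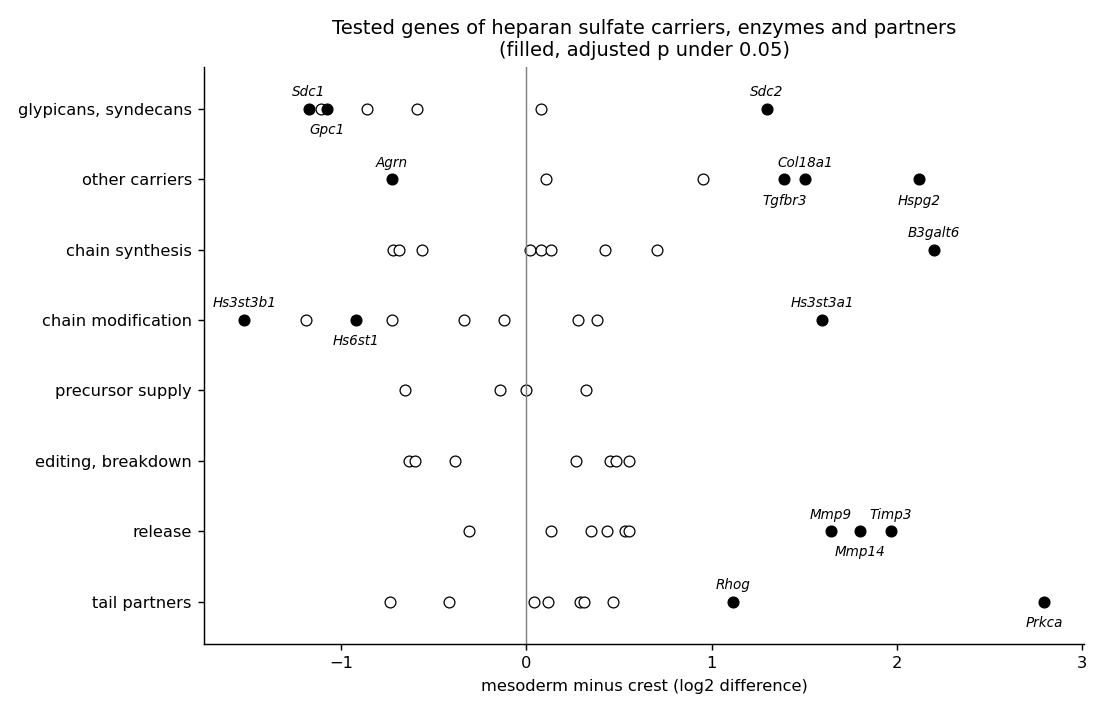
Log2 difference, mesoderm minus crest (horizontal axis), of every tested gene in the member list and in 7 lists of related genes (rows). Filled points, named, passed an adjusted p under 0.05; the members lie on both sides of 0, the called carriers other than Agrn and all called release and tail partner genes lie toward mesoderm.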

How the data were processed

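Members and lists were chosen with earlier results of these data known. Per the labels' protocols, RNA of sorted cells was amplified, labelled with biotin and hybridized to Illumina arrays; array software was not stated. The deposited table gives linear signal intensity per probe, not scaled or background-subtracted, with a detection p-value deposited beside it. The deposited series matrix holds the authors' log2 values, which equal quantile-normalized signals to within 0.00571, and served as an alternative.

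In 27.1% of lines the deposited p did not go with the signal, so it was re-read from each array's signals as a running median over 101 probes. Of these 12273 lines, only a part of those detected on no array was traced to a neighbouring line, namely those with a re-read p in a middle range on all 6 arrays. By that search 4472 traced to the same gene, 799 involved a probe without a symbol, and 29 traced to another gene and were left out. Outside the members, detected lines and the remaining undetected ones were not traced. Signals were corrected by limma 3.58.1 (R 4.3.3, normexp, offset 16), quantile-normalized and tested by its linear model, without covariates, on probes detected on at least 3 of 6 arrays. The brightest probe stood for a gene. Named were the members, listed genes past the threshold (up to 5 a direction), best-known enzymes and carriers fixed with the lists, and the 2 nearest genes of each called member. Cd44, Idua, Adam17 and Krt8 fall outside that rule and were chosen after their values were seen. The single crest, neural tube and neuron markers given beside Gpc6 and Gpc2, Sox9, Ednrb and Isl1 among them, were also chosen after their values were seen. p-values measure the spread of samples of isolated cells whose titles number them as replicates, and 3 arrays a group limit precision. The steps were tested on simulated data.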

Additional observations from a re-analysis of the deposited data

How the results depend on the processing

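Over 16 alternatives, Gpc1, Gpc2, Gpc6, Sdc1, Sdc2 and Sdc3 kept their direction wherever they were tested (Gpc6 was not tested when detection on all 6 arrays was asked for), and Gpc3 did not. With array weights, 4 members were called higher in crest, Gpc2 (-1.0, adjusted p = 0.0209) and Gpc6 (-1.04, adjusted p = 0.0403) being added. With the deposited detection p in the filter 1 member was called higher in crest and Sdc1 was at -0.27, with no filter 1 was and Sdc1 was at -1.17 (adjusted p = 0.118), and under median scaling 0 were called higher in mesoderm, Sdc2 being at 0.96 and Gpc3 at -0.22. With the authors' values or without background correction Gpc6 was at -0.45, Gpc2 at -0.56 and Sdc1 at -0.75, and with an offset of 50 Gpc6 was at -0.67 and Gpc2 at -0.71, with no call changed. On leaving out 1 array, the members called higher in crest numbered 0 to 3 and those higher in mesoderm 1 each time. The log2 differences then ranged from -1.17 to -0.93 for Gpc1, from -1.23 to -0.52 for Gpc2, from -0.091 to 0.22 for Gpc3 (-0.04 without mesoderm replicate 1 and -0.091 without crest replicate 2), from -1.59 to -0.77 for Gpc6, from -1.47 to -0.81 for Sdc1, from 1.11 to 1.40 for Sdc2 and from -0.82 to -0.36 for Sdc3. Fits on 5 arrays have fewer samples and so fewer calls in general. The cause of the other changes was not tested.

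Over all genes 1701 were called, 935 higher in mesoderm and 766 in crest, and over all probes 2121, 1141 and 980. On leaving out 1 array the gene counts were 811 to 1382, 433 to 762 and 241 to 734, and the probe counts 900 to 1660, 481 to 902 and 254 to 916. With array weights 2778 genes were called, 1470 of them higher in crest, and 3701 probes, 2032 of them higher in crest. Asking for detection on all 6 arrays left 965 genes (521 and 444) and 1110 probes (593 and 517), with fewer features tested. Under median scaling 595 genes and 708 probes were higher in mesoderm, and with no filter 1390 probes were called, 576 of them higher in crest. The deposited detection p was used in the filter alone, since a background fitted to it came to 439.1 to 838.3 intensity units, above the median signal of every array.

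Replicate numbers are shared between the groups, and samples of the same number deviated together with r of 0.103, 0.317 and 0.023 over 13057 probes. These values do not settle whether the numbers pair the samples, and the main fit did not use them as pairs. With the replicate number as a block 1983 genes were called, the calls on the 7 members stayed as reported, and Agrn lost its call (adjusted p = 0.0628).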
